A study of Mus musculus with 8 samples.

Results

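Bone and mineralisation genes were followed in mouse smooth muscle cells sorted from the ascending aorta. The 10 genes were taken by name (Spp1, Ibsp, Bglap, Bglap2, Alpl, Mgp, Tnfrsf11b, Sost, Ihh and Col10a1), out of 11447 gene identifiers in the tables, and all 10 were found. They were chosen, with earlier results of these data known, to hold both promoters and inhibitors of mineralisation. Digested aorta gave the GFP-positive cells, which were profiled with 10x Genomics Chromium droplets, which count unique molecular identifiers (UMIs), 1 per captured RNA molecule. The KO libraries came from Apoe-deficient mice with a Tgfbr2 (TGF-beta receptor 2) knockout restricted to smooth muscle cells (genotype label TGFBetaRiSMC-Apoe), and the Apoe libraries from Apoe-/- mice with no such knockout. Both genotypes therefore lack Apoe, and mice of each were kept on the diet labelled ND or on a high fat diet for 1, 2 or 4 months (1M, 2M and 4M). The labels do not name the promoter that drove the knockout, the ages, or how many mice gave a library. Each genotype and diet had 1 library, so a value of a single library has no replicate error, and its intervals cover counting error only.

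The aorta calcifies in disease through steps shared with bone and with cartilage that turns into bone. Mineral is laid down where pyrophosphate is removed and a matrix that binds calcium phosphate is made, while matrix proteins such as matrix Gla protein hold mineral back in the artery wall. In the growth plate, chondrocytes enlarge, secrete Indian hedgehog and collagen X, and then lie in a matrix that mineralises, and osteoblasts add osteopontin, bone sialoprotein and osteocalcin.

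The libraries held 13056 cells, from 1127 in KO ND to 2659 in Apoe 2M, with 9407155 to 19719335 UMIs each. Depth per cell differed most in the 4M pair, with a median of 10988 UMIs in KO 4M against 6966 in Apoe 4M. Tgfbr2 has no value for a KO library in the tables, so the genotype labels could not be checked from it. The KO 4M library stood apart from the other 7. Its 7 smooth muscle markers summed to 1133 CPM (UMIs per 1000000 in a library), with Myocd listed at 0, against 27514 to 32925 in the other KO libraries and 17105 to 27827 in the Apoe libraries. The 10 cartilage markers summed to 1305 CPM in KO 2M and to 32266 in KO 4M, against 4280 in Apoe 4M, and to between 45.6 and 87.9 in the other 5 libraries. Cells with at least 3 markers of macrophages other than Lgals3 numbered 18 in KO 1M and 3 in KO 4M. The other 6 libraries listed at most 1 such marker, and no library listed 3 markers of lymphocytes, endothelial or Schwann cells, so cells of these types could not be counted there. Any pair of libraries shared between 0 and 9 cell barcodes.

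Levels are given as CPM. No gene listed in a library was seen in under 5% of its cells, and a gene listed at 0 may have been removed by such a filter, so no ratio is given against a 0. Mgp, Tnfrsf11b, Sost and Ihh were listed in all 8 libraries. KO 2M also listed Spp1, Ibsp and Bglap, KO 4M listed all 10 genes, and Apoe 4M listed 7, adding Spp1, Ibsp and Alpl. Of the 7 genes listed in KO 2M 3 were at 0 in Apoe 2M, beside 5.86% of all genes listed in KO 2M, and of the 10 listed in KO 4M 3 were at 0 in Apoe 4M, beside 12.8% of all genes. In the other direction 0 of the 10 genes were listed in Apoe and at 0 in KO, beside 3.38% of all genes listed in Apoe 2M and 9.04% of those listed in Apoe 4M.

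The genes lie on 8 chromosomes, given here in GRCm38 with the GENCODE vM21 annotation. Ibsp (chromosome 5, 104299171 to 104311469, plus strand) and Spp1 (chromosome 5, 104435118 to 104441050, plus strand) are 123648 bases apart. Bglap2 (chromosome 3, 88377736 to 88378699) and Bglap (chromosome 3, 88383501 to 88384464), both on the minus strand, are 4801 bases apart and both encode osteocalcin. Their transcripts are identical over the last 100 bases, where droplet reads of the 3' end fall, so the division of UMIs between Bglap and Bglap2 is uncertain. Bglap3, which is in no table, matches both at 98% of those bases. Spp1 overlaps Gm42793 and Col10a1 overlaps Nt5dc1 in the annotation, and the sources used here do not state the strand setting of the counting, so reads of these overlaps cannot be told apart.

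RUNX factors, which include the osteoblast regulator Runx2, bind the letters ACCACA, which read TGTGGT on the opposite strand, and the Bglap promoter is a textbook example. The RefSeq promoter table (GRCm38.p6, 250 bases before to 50 after a gene start) matched 7 of the 10 genes, with no entry for Bglap2, Mgp or Tnfrsf11b. The 2 promoters that held these letters are shown because both genes were among those whose slope in KO cells passed the test, with the match in capitals. The match began 132 bases before the gene start in Bglap (chr3:88384417-88384716, minus strand) and 128 bases before it in Spp1 (chr5:104434861-104435160, plus strand).
Bglap: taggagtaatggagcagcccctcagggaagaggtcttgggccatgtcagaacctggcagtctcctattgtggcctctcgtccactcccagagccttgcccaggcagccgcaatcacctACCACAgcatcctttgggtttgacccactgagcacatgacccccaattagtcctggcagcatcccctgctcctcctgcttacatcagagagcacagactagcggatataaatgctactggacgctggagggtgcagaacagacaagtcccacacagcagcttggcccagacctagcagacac
Spp1: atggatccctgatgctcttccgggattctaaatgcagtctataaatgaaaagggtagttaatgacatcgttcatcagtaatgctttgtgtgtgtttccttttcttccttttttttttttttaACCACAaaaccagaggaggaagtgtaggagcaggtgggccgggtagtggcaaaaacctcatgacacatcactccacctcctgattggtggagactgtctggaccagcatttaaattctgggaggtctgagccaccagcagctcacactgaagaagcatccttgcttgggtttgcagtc
The second Spp1 promoter and those of Ibsp, Alpl, Sost, Ihh and Col10a1 held no match. The slopes of Ibsp, Alpl and Sost in KO cells passed as well. Of 32851 mouse promoters of this length 16.8% held 1, so a match describes these letters and does not by itself show a binding site. Binding was not tested.

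**Figure D1:**
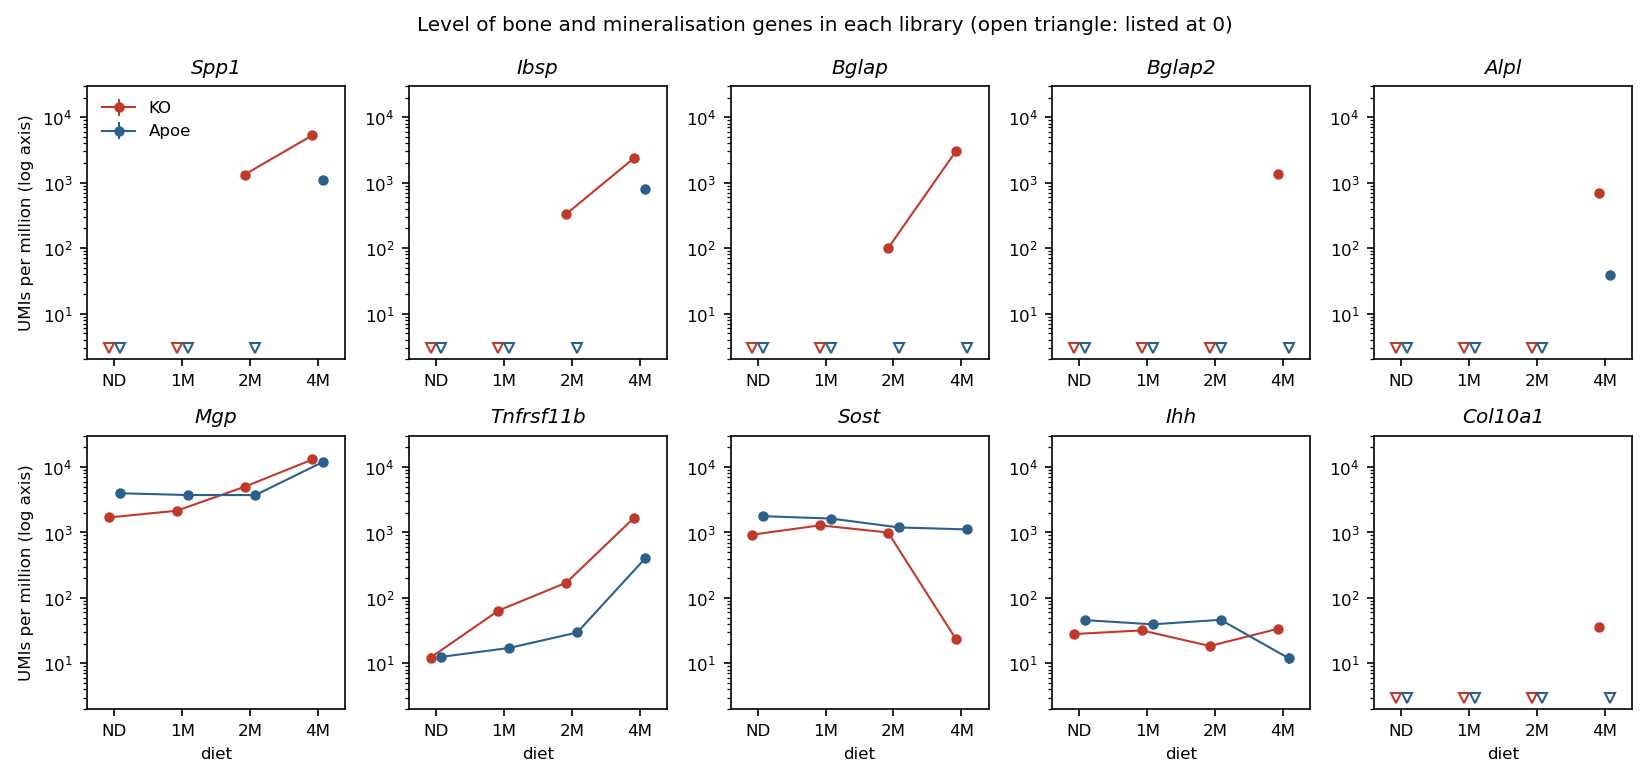
UMIs per 1000000 UMIs of the library (log axis) of each gene on each diet, KO in red and Apoe in blue, 1 library per point with 95% Poisson intervals that are mostly smaller than the point; open triangles mark a gene listed at 0. Spp1, Ibsp, Bglap, Bglap2 and Alpl were listed only at 2M or 4M, and Sost stood at 23.5 in KO 4M against 1115 in Apoe 4M.

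The matrix proteins that bind mineral were first listed in KO at 2M and were highest in KO 4M. Spp1 encodes osteopontin, a phosphorylated glycoprotein of bone and of diseased arteries. Spp1 stood at 1328 CPM in KO 2M and at 5299 in KO 4M, against 1090 in Apoe 4M, with a 0 for KO ND and 1M and for Apoe ND, 1M and 2M. Only the 4M pair allows a ratio, which was 4.86 (95% interval 4.76 to 4.96), and the order of the listed levels was KO 4M, KO 2M, Apoe 4M. Ibsp encodes bone sialoprotein, which nucleates hydroxyapatite. Ibsp stood at 333 CPM in KO 2M and at 2387 in KO 4M, against 795 in Apoe 4M, and was listed at 0 in the other 5 libraries. Its ratio at 4M was 3.0 (2.93 to 3.08), and here Apoe 4M was above KO 2M.

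Osteocalcin, a calcium-binding protein made by mature osteoblasts, was listed in KO libraries alone. Bglap stood at 99.6 CPM in KO 2M and at 3031 in KO 4M, and was listed at 0 in all 4 Apoe libraries. Bglap2 was listed in KO 4M alone, at 1365 CPM. Alpl encodes tissue-nonspecific alkaline phosphatase, which splits the mineralisation inhibitor pyrophosphate. Alpl stood at 692 CPM in KO 4M against 38.3 in Apoe 4M, a ratio of 18.1 (16.3 to 20.1), with 0 in the other 6 libraries. Col10a1, the collagen X chain of hypertrophic chondrocytes, was listed in KO 4M alone at 35.8 CPM in 9.89% of cells. It was in too few cells over the 8 libraries to enter the fits.

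Mgp encodes matrix Gla protein, an inhibitor of arterial calcification, and was in 99.1% to 100% of the cells of every library. Mgp stood at 1696, 2149, 4994 and 13045 CPM in KO ND, 1M, 2M and 4M, against 3982, 3736, 3731 and 12060 in Apoe ND, 1M, 2M and 4M. Both genotypes were highest at 4M, with a level 7.69 times that of ND in KO and 3.03 times in Apoe. The ratio of KO to Apoe was 0.426 on ND, 0.575 at 1M, 1.34 at 2M and 1.08 at 4M. At 2M the direction turned with the scale, since the mean log2 value was 4.16 in KO and 4.30 in Apoe.

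Tnfrsf11b encodes osteoprotegerin, a decoy receptor that binds RANKL and restrains osteoclasts. Tnfrsf11b stood at 12.2, 64.0, 171 and 1686 CPM in KO ND, 1M, 2M and 4M, against 12.6, 17.2, 29.6 and 401 in Apoe ND, 1M, 2M and 4M. The level was higher on each longer diet in both genotypes. On ND the ratio of KO to Apoe was 0.974 with an interval that held 1 (0.776 to 1.22), and it was 3.72 at 1M, 5.78 at 2M and 4.21 at 4M. KO 4M was 138 times KO ND, and Apoe 4M was 31.9 times Apoe ND. Few cells held most of the UMIs in KO 1M and KO 2M. The 17 of 1302 KO 1M cells with at least 10 held 64.5%, and 79 of 2253 such KO 2M cells held 74.9%. The limit of 10 was chosen after the values were seen. The share of cells with a UMI was 16.1% in KO 1M against 12.3% in Apoe 1M. Mean log2 values, KO against Apoe, were 0.23 against 0.14 at 1M and 0.39 against 0.16 at 2M.

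Sost encodes sclerostin, a secreted inhibitor of Wnt signalling and of bone formation that is best known from osteocytes. Sost stood at 927, 1287, 999 and 23.5 CPM in KO ND, 1M, 2M and 4M, against 1775, 1633, 1194 and 1115 in Apoe ND, 1M, 2M and 4M. KO was below Apoe on every diet, with ratios of 0.522, 0.788 and 0.836 on ND, 1M and 2M and of 0.0211 (0.0191 to 0.0232) at 4M. KO 4M held 430 Sost UMIs in 5.64% of cells, against 81.3% of cells in Apoe 4M. The smooth muscle markers moved with Sost in KO 4M, where Acta2 stood at 802 CPM and Myh11 at 74.4, against 11932 and 1639 in Apoe 4M.

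Ihh encodes Indian hedgehog, the growth plate signal to neighbouring chondrocytes and osteoblast precursors. Ihh was low throughout, at 28.0, 31.9, 18.4 and 33.7 CPM in KO ND, 1M, 2M and 4M, against 45.8, 39.5, 46.2 and 12 in Apoe ND, 1M, 2M and 4M. The ratio of KO to Apoe was below 1 on ND (0.612), 1M (0.808) and 2M (0.398), and 2.80 (2.29 to 3.46) at 4M. The share of cells with an Ihh UMI was 22.6% in KO ND and 13.6% in KO 4M, against the direction of the CPM, so no order is read from it within KO.

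**Figure D2:**
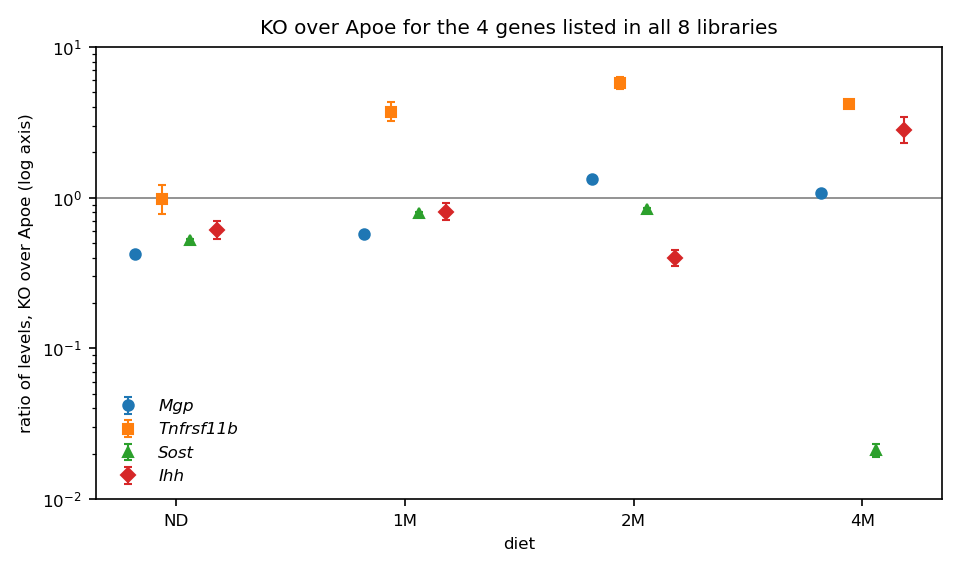
Ratio of the KO to the Apoe level (log axis) on each diet for the 4 genes listed in all 8 libraries, with 95% counting intervals around 1 library each. Sost lay below 1 on all 4 diets, Tnfrsf11b above 1 from 1M, and Mgp and Ihh lay on both sides.

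At 4M, 7 of the 10 genes were listed in both libraries, and 5 of them were higher in KO by at least 1 on the scale of log2(CPM + 1), namely Spp1, Ibsp, Alpl, Tnfrsf11b and Ihh, with 1 lower, Sost. Over all 8624 genes listed in both 4M libraries 6.59% were higher by that much and 17.0% lower, with a median difference of -0.24. The median over the 7 genes was 1.58. These are differences between 2 libraries and carry no test. With CPM taken over the genes listed in all 8 libraries, the 7 differences kept their signs. At 2M, 4 genes were listed in both libraries, with Tnfrsf11b higher (all genes, 1.16%) and Ihh lower (2.17%). At 1M Tnfrsf11b alone passed that size (0.760% of all genes higher, 0.770% lower), and on ND Mgp alone, which was lower in KO (1.37%).

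The share of cells with a UMI was highest in KO 4M for Tnfrsf11b and for the genes listed only at 2M or 4M. In KO 4M, Spp1 was seen in 98.9% of 1577 cells, Ibsp in 89.2%, Bglap in 85.7%, Alpl in 82.7%, Bglap2 in 71.2% and Tnfrsf11b in 96.5%. In Apoe 4M, Spp1 was seen in 31.8% of 1235 cells, Ibsp in 15.5%, Alpl in 6.23% and Tnfrsf11b in 34.3%. KO 2M lay near Apoe 4M for Spp1, at 31.6% of 2253 cells, with Ibsp at 8.48%, Bglap at 5.81% and Tnfrsf11b at 21.8%. With each cell thinned to 2500 UMIs the Spp1 share was 83.3% in KO 4M and 15.2% in KO 2M, against 19.1% in Apoe 4M. Thinned shares of Alpl were 55.0% in KO 4M against 2.91% in Apoe 4M.

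**Figure D3:**
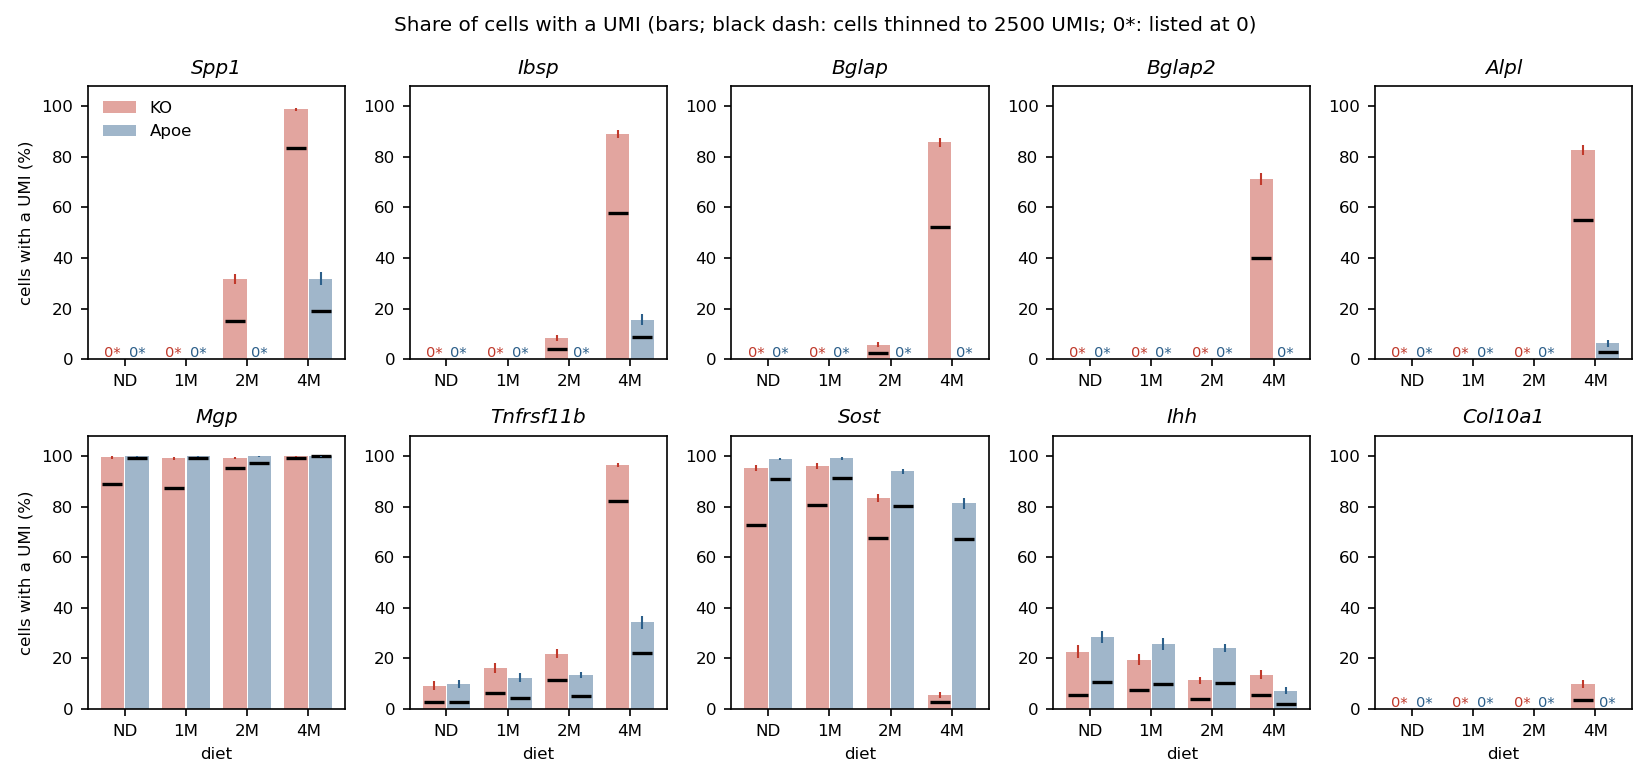
Share of cells with at least 1 UMI of each gene, KO left of Apoe on each diet, with 95% binomial intervals; the black dash is the share after thinning each cell to 2500 UMIs and 0* marks a gene listed at 0. In KO 4M 6 genes that were listed at 0 or in fewer cells of every other library (Spp1, Ibsp, Bglap, Bglap2, Alpl and Tnfrsf11b) were seen in 71.2% to 98.9% of cells, while Sost was seen in 5.64%.

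A UMI in a cell need not come from that cell, because droplets also capture free RNA. Cells were ranked by the summed level of 4 of the smooth muscle markers (Acta2, Myh11, Tagln and Cnn1). The richest of 4 equal groups of cells gave a comparison for the libraries where cells rich in these markers were common. In that group Spp1 was seen in 23.4% of KO 2M cells (median 7694 UMIs) and 17.2% of Apoe 4M cells (7173 UMIs), at 117 and 26.9 CPM. Ibsp was seen there in 5.51% of KO 2M and 9.74% of Apoe 4M cells, Bglap in 4.09% of KO 2M cells and Alpl in 4.22% of Apoe 4M cells. Shares at these levels are not read as expression, and whether the UMIs came from free RNA or from the cells was not tested. KO 4M offers no such comparison, since even its group richest in smooth muscle markers held 6991 CPM of Col2a1, the main cartilage collagen. That group also held 3513 CPM of Spp1, 1432 of Bglap, 1329 of Ibsp and 406 of Alpl. The KO 4M shares of cells with a UMI therefore have no such comparison and are not read as shares of cells that express the gene.

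Most Spp1 and Ibsp UMIs came from few cells. The 10% of cells with most Spp1 held 97.8% of its UMIs in KO 2M and 76.0% in KO 4M, against 95.7% in Apoe 4M. For Ibsp these shares were 77.1% in KO 4M against 99.1% in Apoe 4M, and in KO 2M, where 191 of 2253 cells held an Ibsp UMI, the 38 cells with at least 10 held 96.9% of its UMIs. Cells with at least 10 Spp1 UMIs, a limit chosen after the values were seen, numbered 114 of 2253 in KO 2M (5.06%) and 738 of 1577 in KO 4M (46.8%), against 106 of 1235 in Apoe 4M (8.58%). Cells with at least 10 Bglap UMIs numbered 22 in KO 2M (0.976%) and 376 in KO 4M (23.8%), and those in KO 4M held 95.1% of its UMIs. For Alpl there were 412 such cells in KO 4M (26.1%) against 9 in Apoe 4M (0.729%). The limit of 10 was not adjusted for depth, whose median was 10988 UMIs per cell in KO 4M against 6966 in Apoe 4M. It is thus easier to reach in KO 4M. The highest cell held 7165 Spp1 UMIs and another count reached 4127 for Bglap, both in KO 4M. Alpl and Tnfrsf11b were spread more evenly in KO 4M, where the top 10% of cells held 45.1% and 39.7% of their UMIs.

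Cells were ranked within a library by the summed level of the 10 cartilage markers and divided into 4 equal groups. In KO 2M 964 cells had no UMI of these markers and fill the lowest group and 400 places of the next, so the order of those 2 groups is arbitrary; in Apoe 4M 311 cells had none. In Apoe 4M and KO 2M the mineral-binding genes lay in the group richest in cartilage markers. In KO 2M, Ibsp stood at 8.54, 6.21, 10.8 and 1234 CPM from the lowest to the highest group, Bglap at 5.77, 5.38, 5.85 and 361, and Spp1 at 182, 580, 349 and 3957. In Apoe 4M, Ibsp stood at 17.3, 15.3, 16.3 and 2802 CPM, Alpl at 6.63, 5.50, 5.72 and 122, and Spp1 at 69.3, 159, 139 and 3573. Tnfrsf11b had the same highest group, at 492 CPM in KO 2M and 1243 in Apoe 4M. Sost was lowest in that group in both libraries, at 809 CPM in KO 2M and 657 in Apoe 4M. With cells ranked by the same 4 smooth muscle markers as above instead, the group poorest in them held 4055 CPM of Spp1 and 1202 of Ibsp in KO 2M. In Apoe 4M that group held 3624 and 2727 CPM, so the pattern is not particular to the cartilage ranking.

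In KO 4M, where nearly every cell held Col2a1 UMIs, the genes divided. Osteocalcin and alkaline phosphatase followed the cartilage markers, with Bglap at 344, 871, 3466 and 6320 CPM, Bglap2 at 282, 564, 1533 and 2636, and Alpl at 204, 442, 779 and 1157. Ihh stood at 8.98, 9.46, 26.6 and 78.7 CPM and Col10a1 at 12.9, 14.6, 16.7 and 89.0, so both were concentrated in the highest group. Spp1 ran the other way in CPM, at 6770, 6281, 5849 and 2883, and Ibsp was highest in the third group at 3654 CPM. Shares of cells did not follow these orders. After thinning, Spp1 was seen in 83.3%, 87.8%, 84.5% and 77.7% of cells, and the Ibsp share was highest in the fourth group at 64.0%. Tnfrsf11b (1502, 2139, 1931 and 1179 CPM) and Mgp (9855, 14930, 15287 and 11379 CPM) were highest in the middle groups. Sost stood at 104, 6.31, 3.49 and 2.92 CPM, and the lowest group also held the remaining Myh11, at 339 CPM against 5.05 in the highest. Median depth was 8077, 10578, 12920 and 13145 UMIs in these groups, which bears on shares of cells but not on CPM.

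**Figure D4:**
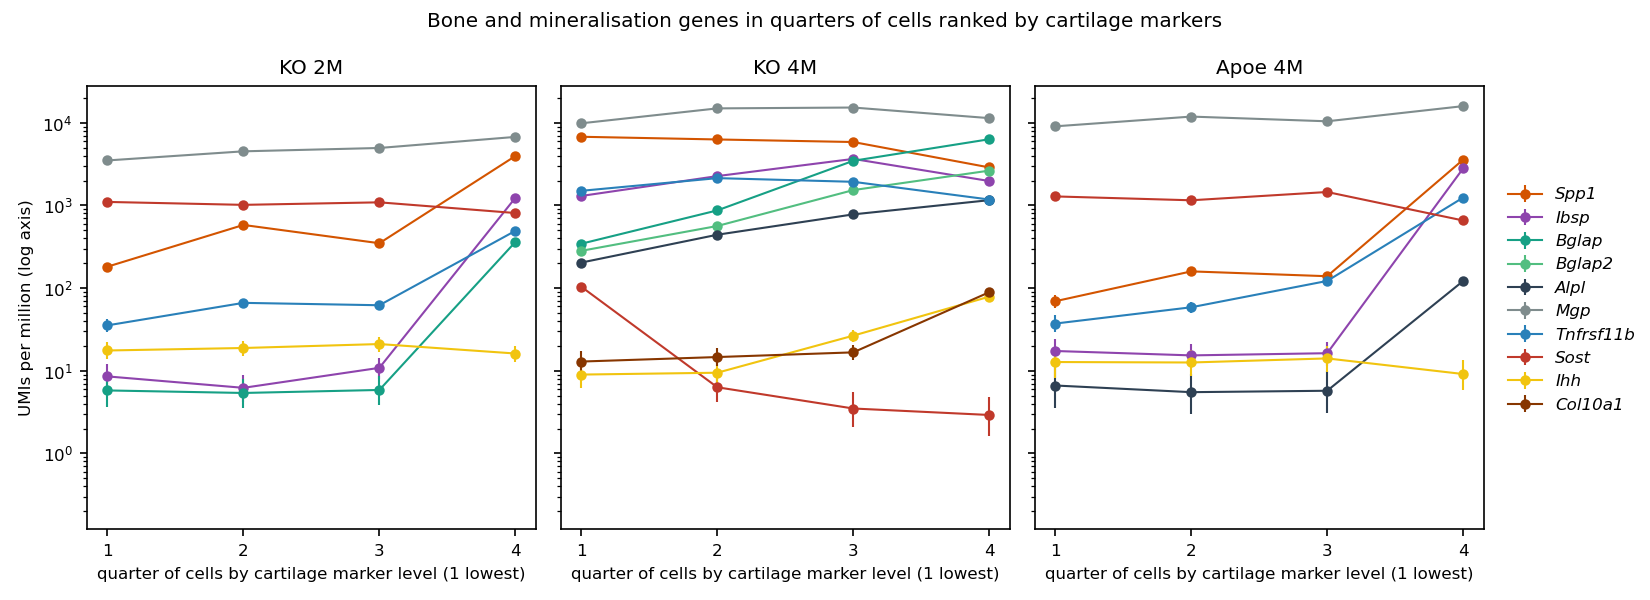
UMIs per 1000000 (log axis, 95% Poisson intervals) in 4 equal groups of cells ranked by cartilage markers, in KO 2M, KO 4M and Apoe 4M; a gene listed at 0 in a library is not drawn, and groups 1 and 2 of KO 2M are not ordered because 964 of its cells are tied at 0. In KO 2M and Apoe 4M Spp1 and Ibsp are highest in group 4, whereas in KO 4M Bglap, Bglap2, Alpl, Ihh and Col10a1 are highest there and Spp1 is lowest.

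Pairs of genes were compared in the same KO 4M cells. Values are correlations of log2(UMIs per 10000 + 1) over 1577 cells of 1 library, which share depth and free RNA. Bglap went with Bglap2 (r = 0.865, a pair whose reads can be split between copies) and with Alpl (0.566), and Ibsp with Alpl (0.477). Bglap was nearly unrelated to Spp1 (0.0882), and so was Alpl (-0.0200). Ibsp was related to both Bglap (0.332) and Spp1 (0.272), so these pairs did not repeat the opposite course of Spp1 in the groups. The closest of 9885 genes to Alpl was Pth1r (0.671), the receptor for parathyroid hormone and its related peptide. The next closest were Panx3 (0.612), Chad (0.592), Bglap and Smpd3 (0.558). The closest to Ihh was Smpd3 (0.424), a sphingomyelinase needed for bone and cartilage mineralisation, and the closest to Col10a1 was Ihh (0.269), both weak. The closest to Spp1 was Serpine2 (0.428), and the closest to Tnfrsf11b was Cst3 (0.417). Sost went with Sh3bgr (0.670), Itga8 (0.663) and the contractile genes Myh11 (0.657) and Tagln (0.634). After thinning, 76.4% of the 89 KO 4M cells with an Ihh UMI also had Bglap, against 50.9% of the 1488 without.

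Over the 8 libraries, the 3 genes closest to each gene listed throughout were, by Pearson's r of log2(CPM + 1) among 7994 genes, Runx1 (0.995), Emp1 (0.985) and Hexa (0.982) for Tnfrsf11b. They were Armcx1, Fbxo32 and Map1b (0.997, 0.997 and 0.996) for Sost. They were Fkbp7 (0.990), an unnamed identifier ENSMUSG00000097769 (0.985) and Slc29a1 (0.974) for Mgp, and Ints7 (0.971), Leo1 (0.962) and Rcc1 (0.956) for Ihh. These values describe 8 libraries, of which KO 4M lies far out for Sost and Tnfrsf11b.

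Within the KO genotype 7 of the 10 genes rose with months on the high fat diet and Sost fell. The slope of the mean log2 value over cells, per month, was 1.01 ± 0.17 (SE) for Spp1, 0.89 ± 0.17 for Tnfrsf11b and 0.74 ± 0.16 for Mgp. It was 0.69 ± 0.14 for Ibsp, 0.65 ± 0.14 for Bglap, 0.57 ± 0.13 for Alpl and 0.48 ± 0.11 for Bglap2. The Sost slope was -0.73 ± 0.15, and that of Ihh was -0.01 ± 0.02 (adjusted p = 0.565, limma). The 8 slopes had adjusted p-values from 0.0255 (Spp1) to 0.0410 (Alpl and Bglap2) by limma with Benjamini-Hochberg adjustment over 9253 genes. A slope passed for 22.5% of all these genes, 6.80% higher and 15.7% lower. Since the genes were chosen with earlier results of these data known, 8 of 9 beside that share is a description and not a test. The median slope was 0.65 over the 9 genes and -0.0049 over all genes. Spp1, Ibsp, Bglap, Bglap2 and Alpl reached the filter through the libraries where they were high, and their listings at 0 entered the fit as 0, so these 5 had to differ between libraries and their count is a description. Ibsp, Bglap, Bglap2 and Alpl reached the filter through KO 4M alone. Their mean shares of cells were 3.43%, 0.831%, 0% and 0.891% without that library. Without KO 4M 0 of 9253 genes passed. The slopes were then 0.33 for Spp1, 0.16 for Tnfrsf11b, 0.090 for Ibsp, 0.050 for Bglap, 0 for Alpl and Bglap2, 0.38 for Mgp and -0.16 for Sost. Without Apoe 4M Mgp alone of the 9 passed. With both ND or both 1M libraries left out 0 genes passed.

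In Apoe cells 0 of the 9 genes passed, as did 0 of all 9253 (0% called; 1165 genes had an unadjusted p under 0.05 by limma). The Apoe slopes were 0.30 ± 0.16 for Mgp, 0.21 ± 0.17 for Spp1, 0.17 ± 0.17 for Tnfrsf11b, 0.10 ± 0.14 for Ibsp and 0.03 ± 0.13 for Alpl. They were -0.33 ± 0.15 for Sost and -0.06 ± 0.02 for Ihh, which alone had an unadjusted p under 0.05 (adjusted p = 0.286, limma). Bglap and Bglap2 were listed at 0 in every Apoe library, so their slopes there could only be 0 and could not pass. The difference of slopes, KO minus Apoe, was 0.80 ± 0.24 for Spp1, 0.71 ± 0.25 for Tnfrsf11b, 0.65 ± 0.20 for Bglap, 0.59 ± 0.20 for Ibsp, 0.54 ± 0.19 for Alpl and 0.48 ± 0.16 for Bglap2. Those 6 genes had an unadjusted p under 0.05 and an adjusted p of 0.226, and 0 of 9253 genes passed (0%; 1954 unadjusted, limma). The difference was 0.44 ± 0.22 for Mgp, -0.41 ± 0.21 for Sost and 0.05 ± 0.02 for Ihh. For Bglap and Bglap2 the difference is the KO slope itself. The slopes are thus not shown to differ between genotypes.

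**Figure D5:**
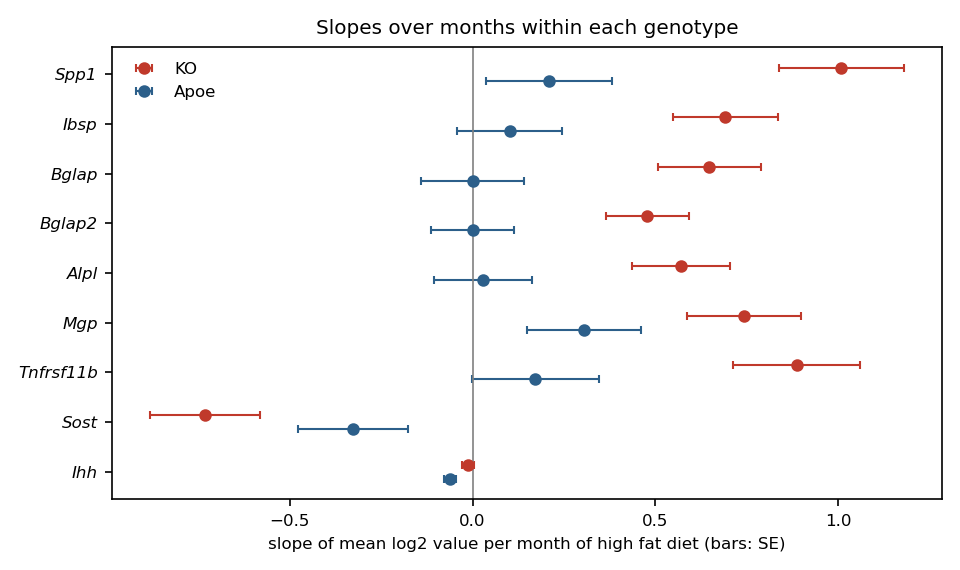
Slope of the mean log2 value per month of high fat diet for the 9 genes tested, KO above Apoe in each row, with the SE of the fit over 8 libraries as bars. The KO slopes of 7 genes lie above 0 between 0.48 and 1.01, with Sost at -0.73 and Ihh near 0.

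The genotype effect over the 4 diets, KO minus Apoe, passed for 0 of the 9 genes, against 14 of 9253 genes (0.151%; 0.0216% higher and 0.130% lower) by limma. It was 0.90 ± 0.59 for Spp1, 0.75 ± 0.55 for Tnfrsf11b, 0.64 ± 0.51 for Bglap and 0.60 ± 0.46 for Ibsp, and 0.51 ± 0.43 for Alpl. The effect for Sost, the 1 gene with an unadjusted p under 0.05, was -1.05 ± 0.38 (adjusted p = 0.351, limma). It was 0.46 ± 0.38 for Bglap2, -0.61 ± 0.33 for Mgp and -0.05 ± 0.05 for Ihh. Without the 4M pair 240 genes passed, again with 0 of the 9. Alpl and Bglap2 were then at 0 in every library left and could not pass, and Bglap was listed in KO 2M alone. The count of 0 is therefore partly fixed by the listing.

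A list of 38 other genes of bone and mineralisation, also chosen with earlier results of these data known, gave context. Of these, 26 were in the tables and 18 were tested. In KO cells 9 of the 18 rose with months and 3 fell (adjusted p from 0.0192 to 0.0468, limma), beside 6.80% and 15.7% of all genes. Those that rose included Omd (osteomodulin, a bone proteoglycan; slope 0.76 ± 0.16), Pth1r (0.56 ± 0.13), and Wif1 (a Wnt inhibitor; 0.49 ± 0.13). Phosphate and pyrophosphate handling was represented by Slc20a1 (a phosphate importer; 0.31 ± 0.08), Ank (which moves pyrophosphate out of cells; 0.29 ± 0.06) and Enpp1 (which makes pyrophosphate; 0.23 ± 0.05). Ctsk (cathepsin K; 0.24 ± 0.04), the homeobox factor Dlx5 (0.14 ± 0.02) and Bmp2 (a bone morphogenetic protein; 0.07 ± 0.02) also rose. Dkk3 (-0.17 ± 0.03), Tnfrsf11a, the receptor RANK (-0.06 ± 0.01), and Slc20a2 (-0.04 ± 0.01) fell. Omd was listed at 0 in KO ND, Dlx5 in KO ND and KO 1M, and Tnfrsf11a in KO 4M. Dlx5 reached the filter through KO 4M alone, with a mean share of cells of 6.70% over the 8 libraries and 2.36% without KO 4M, so it had to differ between libraries. Without KO 4M, without both ND or both 1M libraries, and with the rank of time, 0 of the 18 passed, and without Apoe 4M Tnfrsf11a alone did. Wif1, Bmp2 and Slc20a1 no longer passed with thinned cells or with values from the diet tables, and Dkk3 and Slc20a2 no longer with thinned cells.

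At 4M, 17 of the other genes were listed in both libraries, 11 higher in KO by at least 1 on the log2 scale and 3 lower, beside 6.59% and 17.0% of all genes. The 8 with the greatest difference were all higher in KO. Omd stood at 1364 CPM in KO 4M against 106 in Apoe 4M, and Pth1r at 747 against 65.6. Sparc, the matrix protein osteonectin, stood at 33043 CPM in KO 4M against 6135 in Apoe 4M, and Slc20a1 at 347 against 68.8. Ctsk stood at 135 against 26.3 and Dlx5 at 65.1 against 9.57. Ptch1, the hedgehog receptor and target, stood at 93.4 CPM in KO 4M against 21.3 in Apoe 4M, and Nt5e, which makes adenosine from AMP, at 52.1 against 12.2. The 3 that were lower were Dkk3 (98.8 CPM in KO 4M against 290.2 in Apoe 4M), Gas6 (203 against 590) and Slc20a2 (11.7 against 27.1); Gas6 was named after its values were seen. The osteoblast regulators Runx2 and Sp7 were listed in KO 4M alone, at 46.8 and 46.9 CPM in 34.6% and 28.7% of cells. Smpd3 (107 CPM), Bmp6, Gli1 (a hedgehog target) and Phospho1 (8.52, 7.38 and 6.94 CPM) were also listed in KO 4M alone, and were named after their values were seen. Of all genes listed in KO 4M, 12.8% were at 0 in Apoe 4M. In the other direction Bmp4 (22.3 CPM) and Tnfrsf11a (14.8 CPM) were listed in Apoe 4M and at 0 in KO 4M. This held for 9.04% of all genes listed in Apoe 4M. Bmp4 was also named after its values were seen.

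Summed markers of fibroblasts, macrophages, osteoblasts and osteoclasts were highest in KO 4M, while the endothelial marker Pecam1 was listed at 0 there. All 6 fibroblast markers were in the tables, and they summed to 724 to 13840 CPM in KO libraries and 815 to 5227 in Apoe libraries, highest at 4M in both. Of 10 macrophage markers 6 were in the tables, with sums of 135 to 2271 CPM in KO libraries and 64.3 to 360 in Apoe libraries. Lgals3 alone was listed in the Apoe libraries and in KO 2M. In KO 4M, Lyz2 stood at 21.5 CPM in 10.3% of cells and Cd68 at 6.17 CPM in 5.64%, small parts of the sum there. Both were higher in KO 1M, with Lyz2 at 114 CPM and Cd68 at 19.2 CPM, and C1qa and C1qb were listed in KO 1M alone. The macrophage sum and these single markers thus had their highest values in different libraries. Adgre1, Csf1r, Fcer1g and Tyrobp were in none of the tables used. Of 6 endothelial markers Pecam1 alone was there, listed at 0 in KO 4M and at 30.2 to 34.0 CPM in the other KO libraries, against 34.3 to 69.3 in Apoe libraries. Of 5 Schwann cell markers S100b alone was there, which chondrocytes also express, at 20.3 CPM in KO 2M and 239 in KO 4M, against 27.5 in Apoe 4M. Lymphocyte markers numbered 0 of 6. Osteoblast markers numbered 3 of 5 and summed to 120 CPM in KO 4M, against 16.7 in Apoe 4M, where Phex alone was listed. Osteoclast markers numbered 2 of 5 (Acp5 and Ctsk) and summed to 152 CPM in KO 4M, against 26.3 in Apoe 4M. KO 4M listed only 3 macrophage markers other than Lgals3, so a cell was taken out only if it held all 3. Without those 3 cells Spp1 stood at 5302 CPM and Bglap at 3034 in KO 4M. Taking out so few cells could hardly change a level, so these values do not bear on cells with fewer of the markers. The part of markers of other cell types in the results was not tested.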

How the data were processed

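Single-cell RNA of 8 mouse libraries was used as deposited: 6 tables of log2 values per cell, which the authors scaled with trimmed-mean (TMM) factors, per the file headers and names, which also say that Apoe and Tgfbr2 were removed. The submitters' processing notes list featureCounts, Subread 1.6.0, STAR and UMI-tools, and the build GRCm38; annotation release and strand setting are not given in the sources used here. Each library is in 2 tables, a time-course table of 1 genotype and a diet table of both.

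Whole UMIs were recovered as 2 to the power of the value, minus 1, divided by the smallest such value of the cell (100% of entries whole, tolerance 0.01). CPM are these UMIs per 1000000 of the library, with 95% Poisson intervals, and shares have Clopper-Pearson 95% intervals. Identifiers were matched to GENCODE vM21 without version (11439 of 11447). No cell was removed and no doublet caller was run. Mean log2 values per library were fitted with limma 3.58.1 (R 4.3.3) for the 9253 genes whose share of cells, averaged over libraries, reached 5%. The genotype effect was fitted with a term for diet (diet tables, 3 residual degrees of freedom), and the slopes had genotype and months within genotype (4, time-course tables, in which the genotypes were normalized separately). The spread in these fits is that of libraries around the model. P-values were adjusted by Benjamini-Hochberg over every gene tested and called under 0.05; the fits were tested on simulated data. The test for log values was used, since the tables hold no counts. Thinning drew 2500 UMIs from each cell.

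The 10 genes, the other 38 genes and the marker lists were chosen with earlier results of these data known. All 10 genes are named; of the 38, those past the threshold and the 8 with the largest difference at 4M. Alternatives were other scalings, pseudocounts (0.1), filters, thinning, cells of other types and diets left out. Without KO 4M, without Apoe 4M and the limit of 10 UMIs were added after seeing the data.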

Additional observations from a re-analysis of the deposited data

Results flagged for a closer look

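The direction of the genotype difference turned with the diet for Mgp and Ihh, each from 1 library per genotype and diet. For Mgp the difference of log2(CPM + 1), KO minus Apoe, was -1.23 on ND and -0.80 at 1M, and 0.42 at 2M and 0.11 at 4M. For Ihh it was -0.69 on ND, -0.30 at 1M and -1.28 at 2M, and 1.41 at 4M. Each counting interval left out equality, but the change of direction between diets was not tested. The mean log2 values gave Mgp the opposite direction at 2M, with a difference of -0.15. No group held 4 or more libraries, so no single library was tested as standing apart.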

How the results depend on the processing

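The number of genes with a slope in KO was 2084; it was 1283 with thinned cells, 87 with the rank of time, 718 without Apoe 4M and 0 without KO 4M, and ran from 0 to 3060 with both libraries of 1 diet left out. The count was 0 without ND, 1M or 4M and 3060 without 2M. The 8 bone genes past the threshold stayed past it with CPM, the 0.1 pseudocount, no filter, without cells of other types, with values from the diet tables and without 2M; 6 did when thinned (not Alpl and Bglap2), 1 (Mgp) without Apoe 4M and 0 with the rank of time. The Ihh slope in KO turned to 0.034 with CPM and to 0.0023 with thinned cells.

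The genotype effect passed for 14 genes, for 5 with CPM and for 9 with the 0.1 pseudocount. With 1 diet left out it passed for 0 (without 1M or 2M) to 240 genes (without 4M). In each of these settings 0 of the 9 bone genes passed. Without 4M, Alpl and Bglap2 were at 0 in every library left and could not pass. The slope in Apoe passed for 0 genes, and for 1 without KO 4M; leaving out 1 diet gave 0 to 0. Without Apoe 4M, as without both 4M libraries, the Mgp slope in Apoe turned to -0.20 (-0.20 to 0.49 over the diets left out). The difference of slopes passed for 0 genes in all settings but without 2M, where 7 passed (0 to 7 over the diets left out). Without KO 4M it turned to -0.011 for Ibsp, -0.014 for Tnfrsf11b, -0.029 for Alpl and 0.17 for Sost. Without both 4M libraries it turned for Sost and Ihh, and the diets left out gave -0.67 to 0.24 for Sost and -0.038 to 0.071 for Ihh. The cause was not tested beyond the fewer libraries in these fits.

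No paired analysis was possible because the labels give no replicate numbers; KO and Apoe libraries are matched only by diet, through the diet term of the genotype effect. With 1 library per group, single-diet differences have counting error only. Genes listed at 0 entered the fits as 0, which bears on the slopes of Spp1, Ibsp, Bglap, Bglap2 and Alpl. Of 44 levels, 29 moved beyond their counting interval with the UMIs of genes listed in all 8 libraries as the total, and 0 in KO 1M and KO 4M without cells of other types, which could be found in those 2 libraries only. Thinning moved 43 of 44 shares. Ihh levels rest on 113 to 912 UMIs per library.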
